A study of Mus musculus with 6 samples.

Results

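The cell cycle and proliferation genes described here were 42 of the 55487 genes in a count table of 6 mouse tumors, taken as the rows whose symbol was on a list of DNA replication, mitosis and cell cycle control genes. They comprised 14 DNA replication genes, 20 mitosis genes and 8 regulators and general markers of proliferating cells. RNA was sequenced from subcutaneous tumors grown from CT26.WT, a colon carcinoma cell line of the BALB/c strain, implanted in immunocompetent BALB/c mice. The control group (3 tumors) came from mice injected with PBS, and the IFN-γ group (3 tumors) from mice injected with IFN-γ, both through the tail vein. According to the methods, each injection had a volume of 100 µL, IFN-γ was given at 100 ng/ml every 48 h, the male mice were bought at 4 weeks of age, and each group of the animal experiment held 6 mice. All tumors were wild type by their labels, were grown from a single cell line and hold host cells as well as implanted cells. The labels do not say whether replicates came from separate mice, so p-values measure the spread between these 6 samples.

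A dividing cell copies its DNA in S phase and separates the copies in mitosis. Before S phase, the MCM helicase is loaded on origins, and E2F transcription factors switch on the genes for replication and for nucleotide supply. Genes for mitosis are switched on later, in G2, by complexes that include B-Myb and FOXM1 and that act through CHR and CCAAT elements near their start sites. Because most of these transcripts are made mainly in cycling cells, they are commonly read in tumors as a measure of proliferation. The comparison asks whether their level differed between tumors of mice given IFN-γ and tumors of control mice, and whether replication and mitosis genes behaved alike.

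Libraries held 15759300 to 17559680 counts on genes, so that 3 counts, taken as the floor, corresponded to 0.169 to 0.188 CPM (counts scaled to a common library size). IFN-γ tumor 3 stood apart from the other tumors of its group. The mean log2 level of 17 genes induced by IFN-γ, relative to the control mean, was -0.42, 0.35 and 0.07 in control tumors 1, 2 and 3, and 1.05, 1.10 and -0.13 in IFN-γ tumors 1, 2 and 3. The summed level of 5 skin keratinocyte markers was 69.3 CPM in IFN-γ tumor 3 and at most 12.3 CPM in the other 5 tumors. Results are therefore also given without IFN-γ tumor 3. Of 9 markers of colon epithelium checked against the label colon carcinoma, Cdx1 and Cdx2 were at or below the floor in every tumor. Epcam (0.057 to 0.93 CPM), Krt19 (0 to 0.40 CPM) and Vil1 (0 to 0.29 CPM) were also low. Krt8 was at 0.19 to 12.1 CPM, Krt20 at 113 to 271 CPM, Krt18 at 6.41 to 10.4 CPM and Cdh1 at 1.28 to 2.46 CPM. Of the 9, 4 were high enough to be tested.

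The upstream sequences of genes from both classes are printed to show the E2F, CHR and CCAAT letters counted below, whose shares were not tested for a difference between the classes. RefSeq promoter windows of assembly GRCm38.p6, each with 250 bases before and 50 bases after the start, were found for 32 of the 42 genes. An E2F motif (TTTCCCGC, TTTGGCGC, TTTCGCGC or TTCCCGCC, either strand, of which the first and the last overlap in sequence) was present in 7 of 13 windows of 12 replication genes, or 53.8%. It was present in 1 of 16 mitosis windows (6.25%) and in 3.49% of all 32851 windows in the table. A CHR motif (TTTGAA or TTCGAA, either strand) was present in 12 of 16 mitosis windows (75.0%), in 3 of 13 replication windows (23.1%) and in 19.2% of all windows. The CCAAT motif, on either strand, was present in 14 of 16 mitosis windows (87.5%), 10 of 13 replication windows (76.9%) and 37.4% of all windows. Among 4 windows of the regulators and markers, 0 held the E2F motif, 2 the CHR motif and 2 the CCAAT motif. These are matches of letters and were not tested as binding sites. The stretches below end at the base before the start, run 5′ to 3′ along the gene, and carry E2F, CHR and CCAAT matches in capitals. They are shorter than the windows counted, with 200 bases each, or 250 for Cdk1, and none after the start. A match counted in a window can therefore lie outside the stretch shown. For replication, Mcm6, Rrm1 and Mcm3 are shown because they were higher in every IFN-γ tumor than in any control tumor, and Mcm5 because 2 overlapping E2F matches lie in it.
Mcm6, chr1:128359706-128359905, minus strand: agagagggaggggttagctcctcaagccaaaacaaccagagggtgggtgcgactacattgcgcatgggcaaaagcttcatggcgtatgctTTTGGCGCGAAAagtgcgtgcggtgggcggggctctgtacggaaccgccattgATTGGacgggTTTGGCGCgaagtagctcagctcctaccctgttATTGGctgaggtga
Rrm1, chr7:102441495-102441694, plus strand: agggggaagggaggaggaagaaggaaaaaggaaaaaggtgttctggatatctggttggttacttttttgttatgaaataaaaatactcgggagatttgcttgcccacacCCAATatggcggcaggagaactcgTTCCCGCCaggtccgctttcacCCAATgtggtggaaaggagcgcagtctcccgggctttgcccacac
Mcm3, chr1:20820313-20820512, minus strand: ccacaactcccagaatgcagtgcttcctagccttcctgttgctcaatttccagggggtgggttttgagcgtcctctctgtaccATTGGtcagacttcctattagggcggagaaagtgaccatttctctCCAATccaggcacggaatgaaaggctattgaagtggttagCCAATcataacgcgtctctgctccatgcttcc
Mcm5, chr8:75109309-75109508, plus strand: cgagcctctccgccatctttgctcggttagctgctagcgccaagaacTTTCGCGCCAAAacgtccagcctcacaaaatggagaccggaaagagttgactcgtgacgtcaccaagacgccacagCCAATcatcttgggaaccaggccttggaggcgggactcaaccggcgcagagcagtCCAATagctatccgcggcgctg
For mitosis, Cdc20, Kif11 and Cdk1 are shown because they hold CHR and CCAAT matches close to the start, and Plk1, which has a CCAAT match alone in this stretch, because it had the smallest p of the 42 genes. As Cdc20, Kif11 and Cdk1 were picked for these matches, they do not show how common CHR matches are in such stretches of mitosis genes.
Cdc20, chr4:118437344-118437543, minus strand: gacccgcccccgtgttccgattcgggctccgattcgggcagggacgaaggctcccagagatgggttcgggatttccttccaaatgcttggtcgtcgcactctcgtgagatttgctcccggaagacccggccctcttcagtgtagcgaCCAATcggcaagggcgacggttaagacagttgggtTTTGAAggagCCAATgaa
Kif11, chr19:37376182-37376381, plus strand: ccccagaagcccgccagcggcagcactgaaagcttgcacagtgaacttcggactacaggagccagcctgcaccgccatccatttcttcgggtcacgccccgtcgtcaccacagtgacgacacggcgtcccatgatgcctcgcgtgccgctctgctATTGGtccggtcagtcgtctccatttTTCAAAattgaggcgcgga
Cdk1, chr10:69352913-69353162, minus strand: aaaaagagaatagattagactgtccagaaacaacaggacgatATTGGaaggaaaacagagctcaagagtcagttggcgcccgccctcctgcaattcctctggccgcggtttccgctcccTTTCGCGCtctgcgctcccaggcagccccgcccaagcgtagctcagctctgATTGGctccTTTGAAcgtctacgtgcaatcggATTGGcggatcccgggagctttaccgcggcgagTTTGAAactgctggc
Plk1, chr7:122159235-122159434, plus strand: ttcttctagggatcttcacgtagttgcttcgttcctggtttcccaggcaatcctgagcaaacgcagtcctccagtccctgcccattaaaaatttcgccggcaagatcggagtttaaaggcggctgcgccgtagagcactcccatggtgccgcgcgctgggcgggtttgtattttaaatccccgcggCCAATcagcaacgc
In these stretches, Mcm6, Mcm5 and Rrm1 hold E2F and CCAAT matches and no CHR match, Mcm3 holds CCAAT matches alone, and Cdk1 holds all 3 kinds.

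No difference between the groups passed the threshold in any of the 42 genes, and the intervals bounded each difference closely. By edgeR's quasi-likelihood test, 0 of 42 had an adjusted p under 0.05, against 17 of 15114 genes tested, or 0.112%. At an unadjusted p under 0.05 there was 1 gene of the 42, Plk1, against 1539 of the 15114 genes tested. DESeq2 called 0 of the 42 as well, against 1.39% of all genes to which it gave an adjusted p, and limma-voom called 0, against 0.086%. The log2 fold changes (IFN-γ over control) lay between -0.20 for Cenpf and 0.15 for Mcm6, with standard errors from 0.062 to 0.14, and adjusted p from edgeR was 0.40 or higher. For 42 of 42 genes the whole 95% interval of the fold change lay within 1.5-fold in either direction, against 61.2% of all genes tested. The outermost bounds on the log2 scale were -0.49, for Mki67, and 0.34, for Ccne1. These genes were well covered, with a median level of 148 CPM against 26.1 CPM over all genes tested. In bulk tumor RNA, fewer cells of a type and less RNA per cell cannot be told apart.

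**Figure D1:**
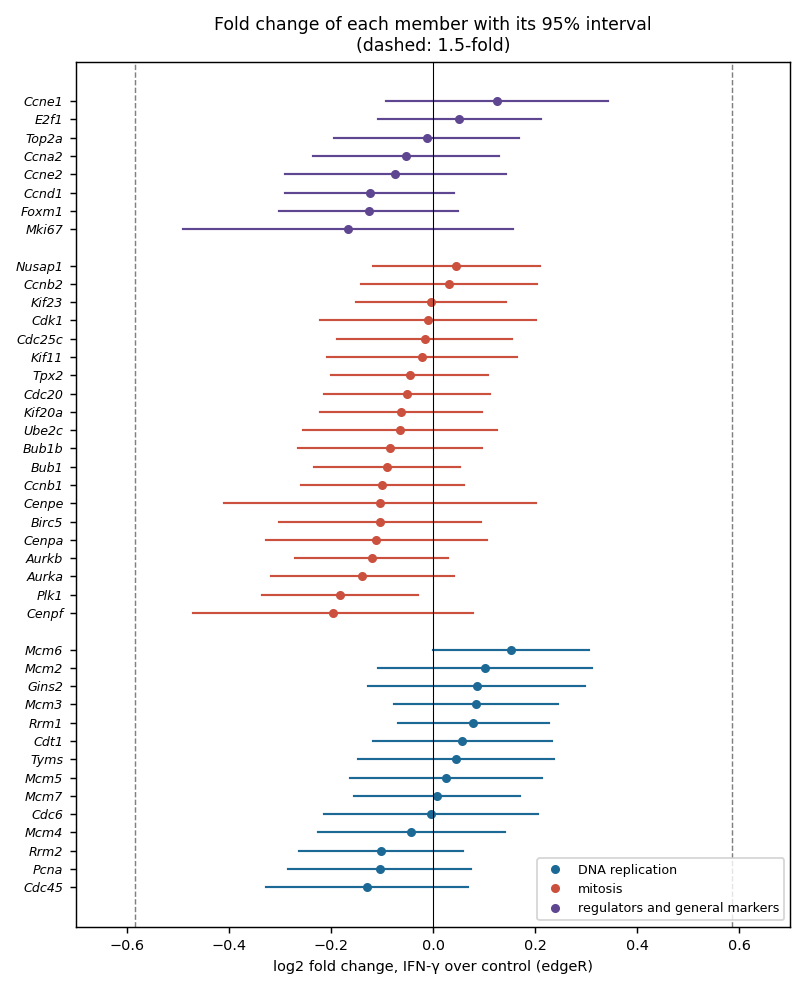
Log2 fold change of IFN-γ over control tumors (horizontal axis) for each of the 42 genes, from edgeR on 3 tumors per group, with bars for the 95% interval and dashed lines at 1.5-fold. Each bar stays within the dashed lines, and most mitosis genes lie left of 0 while the replication genes lie on both sides.

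The tumors resembled each other in these genes. The coefficient of variation among the 3 control tumors had a median of 5.20% over the genes, from 0.300% for Rrm1 to 11.8% for Cenpa. Among the 3 IFN-γ tumors the median was 4.72%, from 0.677% for Rrm1 to 19.2% for Cenpe. The highest of the 6 tumors exceeded the lowest by a factor of 1.05 (Kif23) to 1.57 (Mki67), and this factor was above 1.5 for 1 gene, Mki67. Of the 42 log2 fold changes, 13 were above 0 and 29 below, with a median of -0.049, whereas the median over all genes tested was 0.0015, with 49.6% below 0. In 3 of 42 genes (7.14%) every IFN-γ tumor was above every control tumor, against 7.62% of all genes tested. In 7 of 42 genes (16.7%) every IFN-γ tumor was below every control tumor, against 7.5% of all genes tested.

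**Figure D2:**
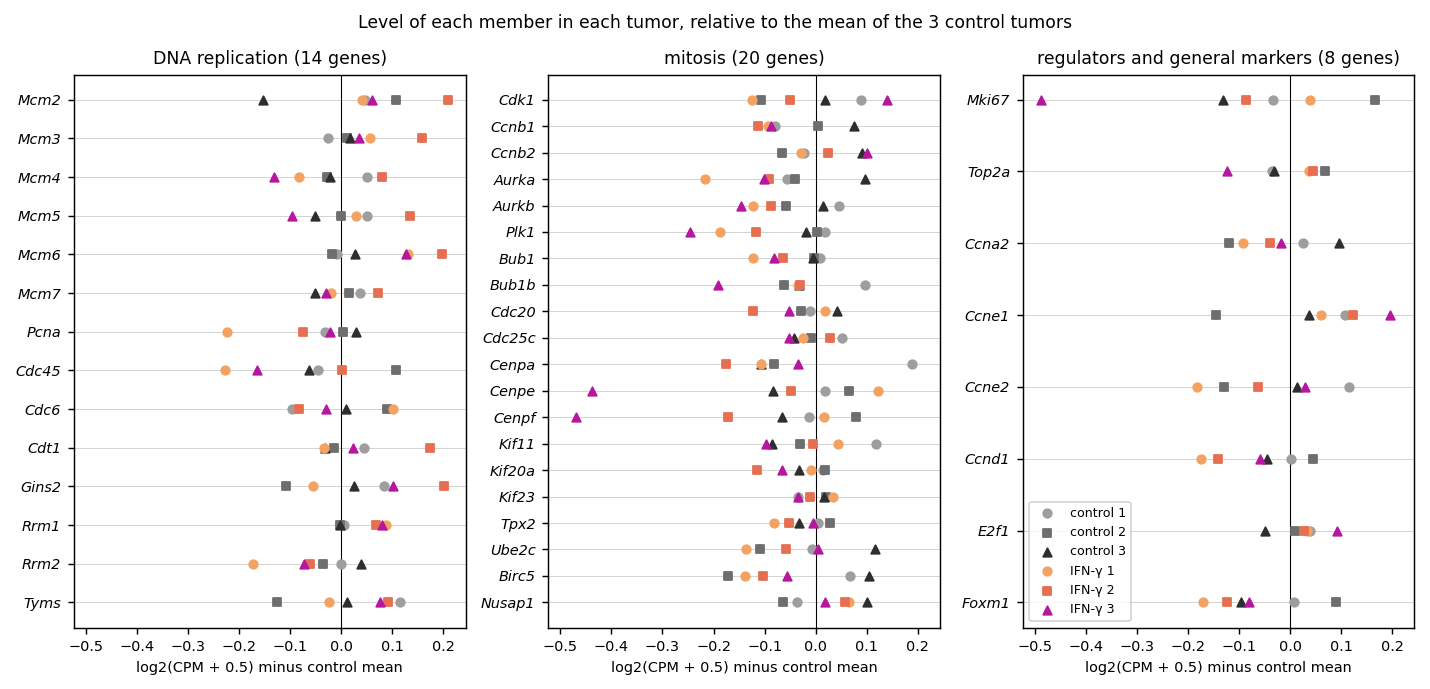
Level of each gene in each of the 6 tumors as log2(CPM + 0.5) minus the mean of the 3 control tumors (horizontal axis), in 3 panels by role, with grey symbols for control and colored symbols for IFN-γ tumors. Nearly all points lie within 0.25 of 0, and the lowest points are those of Mki67, Cenpf and Cenpe in IFN-γ tumor 3.

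The 14 DNA replication genes lay on both sides of 0, with 9 log2 fold changes above 0, 5 below and a median of 0.035. None of the 14 passed edgeR's adjusted threshold, and 0 had an unadjusted p under 0.05, against 1539 of all 15114 genes tested. With library size as the only scaling, Mcm5 and Mcm7 changed sign. IFN-γ tumor 2 was the highest of the 6 tumors in 8 of the 14 genes, and without it the median was 0.0073.

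Mcm2 to Mcm7 encode the 6 subunits of the helicase that unwinds DNA at the replication fork. Mcm6, at chr1:128331590-128359664 on the minus strand (GRCm38), is the member whose upstream stretch above holds 3 E2F matches. Its level was 216, 215 and 222 CPM in control tumors 1, 2 and 3 and 238, 249 and 238 CPM in IFN-γ tumors 1, 2 and 3. The groups did not overlap, and the IFN-γ tumors were higher by 0.15 on the log2 scale (standard error 0.067), with an adjusted p of 0.49 from edgeR. Mcm2 was at 192, 200 and 167 CPM in the controls and 191, 214 and 194 CPM in the IFN-γ tumors. Its groups overlapped, with control tumor 3 the lowest and IFN-γ tumor 2 the highest, and the log2 fold change was 0.10 (standard error 0.091). For Mcm3, the control tumors lay between 199 and 205 CPM and the IFN-γ tumors between 208 and 227 CPM, without overlap. Its log2 fold change was 0.084, with an adjusted p of 0.75 from edgeR. Mcm4, Mcm5 and Mcm7 had log2 fold changes of -0.043, 0.025 and 0.0082. The 6 subunits are made for a single ring, and their control levels per length of transcript ranged from 54.1 CPM per kb for Mcm4 to 94.1 CPM per kb for Mcm7.

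Cdc6 and Cdt1 load the helicase on origins, and Cdc45 and the GINS subunit Gins2 activate it. Cdc45 was at 82.5, 91.8 and 81.5 CPM in the control tumors and at 72.6, 85.2 and 75.9 CPM in the IFN-γ tumors. The groups overlapped through IFN-γ tumor 2, and the log2 fold change was -0.13 (standard error 0.087). The log2 fold changes of Cdc6, Cdt1 and Gins2 were -0.0046, 0.057 and 0.085, each with overlapping groups. Pcna encodes the sliding clamp that holds the polymerases on DNA. It had the highest level per length of the replication genes in the controls, 292 CPM per kb, with 433, 444 and 452 CPM in the control tumors and 379, 420 and 436 CPM in the IFN-γ tumors. IFN-γ tumor 3 lay within the control range, and the log2 fold change was -0.10 (standard error 0.078).

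Rrm1 and Rrm2 encode the large and the small subunit of ribonucleotide reductase, which makes deoxynucleotides, and the subunits differed in direction. Rrm1 was at 240, 239 and 239 CPM in the control tumors and at 255, 251 and 253 CPM in the IFN-γ tumors, all above the controls. Rrm2 was at 204, 199 and 210 CPM in the control tumors and at 181, 196 and 194 CPM in the IFN-γ tumors, all below them. The log2 fold changes were 0.079 for Rrm1 (95% interval from -0.069 to 0.23) and -0.10 for Rrm2 (from -0.26 to 0.058), with adjusted p of 0.75 and 0.68 from edgeR. The difference between the subunits was not tested. Tyms, which makes thymidylate, had a log2 fold change of 0.045 with overlapping groups.

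The 20 mitosis genes lay mostly below 0, with 18 log2 fold changes below 0, 2 above (Ccnb2 and Nusap1) and a median of -0.076. None of them passed the adjusted threshold of edgeR. Plk1 alone had an unadjusted p under 0.05, against 1539 of all 15114 genes tested. The sign of Ccnb2 turned with library size as the only scaling. In 5 of the 20 (Aurka, Aurkb, Bub1, Ccnb1 and Plk1) every IFN-γ tumor lay below every control tumor, against 7.5% of all genes tested. In 0 of the 20 every one lay above, against 7.62%. The highest of the 6 tumors was a control tumor in 16 of the 20 genes, and the lowest was an IFN-γ tumor in 16 of the 20.

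Plk1, Aurka and Aurkb encode kinases that drive entry into mitosis, spindle assembly and chromosome attachment. Plk1, at chr7:122159439-122169873 on the plus strand (GRCm38), was at 97.7, 96.6 and 95.2 CPM in the control tumors and at 84.7, 89.0 and 81.3 CPM in the IFN-γ tumors. The control tumors differed among themselves by less than their distance to any IFN-γ tumor. The log2 fold change was -0.18 (standard error 0.067, 95% interval from -0.34 to -0.030), a difference of -11.9%, and the adjusted p from edgeR was 0.40. An exon of Plk1 overlaps another gene on the opposite strand, and whether the counting used strand is not given in the sources used here. Aurka was at 63.3, 64.0 and 70.3 CPM in the control tumors and at 56.5, 61.7 and 61.3 CPM in the IFN-γ tumors. Aurkb was at 112, 104 and 109 CPM in the control tumors and at 99.5, 102 and 97.8 CPM in the IFN-γ tumors. Both kinases were thus lower in every IFN-γ tumor, by narrow margins, with log2 fold changes of -0.14 for Aurka (standard error 0.078) and -0.12 for Aurkb (standard error 0.066).

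Cdk1 and cyclin B (Ccnb1, Ccnb2) form the kinase that starts mitosis. Cdk1 was at 181, 158 and 172 CPM in the control tumors and at 156, 164 and 187 CPM in the IFN-γ tumors, with both the lowest and the highest tumor in the IFN-γ group. Its log2 fold change was -0.010 (95% interval from -0.22 to 0.20). Ccnb1 was at 131, 139 and 146 CPM in the control tumors and at 130, 128 and 130 CPM in the IFN-γ tumors, so that the groups met without overlapping. Estimated log2 fold changes were -0.10 for Ccnb1, 0.031 for Ccnb2 and -0.017 for Cdc25c, the phosphatase that activates Cdk1. A Ccnb1 pseudogene took up reads equal to 1.63% of those of Ccnb1, the most for any gene of the list with such a copy in the table.

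Bub1 and Bub1b belong to the spindle checkpoint, and Cdc20 and Ube2c to the ubiquitin ligase that it restrains. Bub1 was at 91.2, 90.5 and 90.5 CPM in the control tumors and at 83.2, 86.8 and 85.7 CPM in the IFN-γ tumors. The control tumors were almost equal and all 3 IFN-γ tumors lay below them, with a log2 fold change of -0.090 (standard error 0.062). Bub1b, Cdc20 and Ube2c had log2 fold changes of -0.085, -0.051 and -0.066, each with overlapping groups. Among the centromere and kinetochore genes, Cenpf was at 195, 207 and 188 CPM in the control tumors and at 199, 174 and 142 CPM in the IFN-γ tumors. IFN-γ tumor 1 lay within the control range and IFN-γ tumor 3 was the lowest. The log2 fold change of -0.20 (standard error 0.12) was the largest decrease of the 42 and had an adjusted p of 0.64 from edgeR. Cenpe, a kinetochore motor, was at 106 CPM in IFN-γ tumor 3 and between 136 and 157 CPM in the other 5 tumors. Cenpa, the centromeric histone H3 variant, had a log2 fold change of -0.11.

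The remaining mitosis genes act on the spindle and in cell division. The kinesins Kif11, Kif20a and Kif23 had log2 fold changes of -0.021, -0.063 and -0.0039. Those of the spindle proteins Tpx2 and Nusap1 were -0.046 and 0.045, and that of Birc5, the survivin subunit of the Aurora B complex, was -0.10. Of these 6 genes, 0 had groups that did not overlap. Among all genes tested, every IFN-γ tumor was above every control tumor in 7.62% and below in 7.5%, so a count of 0 in 6 says little. Kif23 was the steadiest gene of the list, between 116 and 121 CPM in all 6 tumors.

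The 8 regulators and general markers also stayed within a narrow range. Ccnd1, cyclin D1, which links growth signals to entry into the cycle, had the highest level per length of the 42, 337 CPM per kb in the controls, with 1263, 1301 and 1222 CPM in the control tumors and 1118, 1144 and 1210 CPM in the IFN-γ tumors. Every IFN-γ tumor lay below every control tumor, with a log2 fold change of -0.12 (standard error 0.072) and an adjusted p of 0.61 from edgeR. Foxm1, an activator of mitosis genes, was at 243, 257 and 226 CPM in the control tumors and at 215, 222 and 229 CPM in the IFN-γ tumors. IFN-γ tumor 3 lay above control tumor 3, and the log2 fold change was -0.13 (standard error 0.077). E2f1, an activator of replication genes, was at 58.9, 57.7 and 55.4 CPM in the control tumors and at 58.7, 58.5 and 61.2 CPM in the IFN-γ tumors. Ccne1, a cyclin of the start of S phase, was at 35.4, 29.7 and 33.8 CPM in the control tumors and at 34.3, 35.9 and 37.7 CPM in the IFN-γ tumors. Both overlapped between groups, with log2 fold changes of 0.052 for E2f1 and 0.13 for Ccne1, and that of Ccne2 was -0.074. Ccna2, the cyclin of S phase and G2, was at 256, 232 and 269 CPM in the control tumors and at 236, 245 and 249 CPM in the IFN-γ tumors, all 3 within the control range. Its log2 fold change was -0.053 (95% interval from -0.24 to 0.13).

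Mki67 encodes the Ki-67 protein, the usual stain for cycling cells, and Top2a encodes the topoisomerase that untangles sister DNA. Mki67, at chr7:135689784-135716361 on the minus strand (GRCm38), was at 514, 591 and 480 CPM in the control tumors and at 541, 496 and 375 CPM in the IFN-γ tumors. IFN-γ tumors 1 and 2 lay within the control range, and IFN-γ tumor 3 was below all other tumors. Top2a was at 540, 581 and 542 CPM in the control tumors and at 568, 571 and 509 CPM in the IFN-γ tumors, where tumor 3 was again the lowest. The log2 fold changes were -0.17 for Mki67 (95% interval from -0.49 to 0.16) and -0.013 for Top2a (from -0.19 to 0.17).

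Mki67, Cenpf and Cenpe, which were low in IFN-γ tumor 3, have long transcripts. Their principal transcripts measured 10.1, 11.1 and 7.91 kb, the 3 longest of the 42. Over all genes tested with a transcript length (13019 of 15114), the median log2 difference of IFN-γ tumor 3 from the control mean was 0.076 under 2 kb, 0.0079 from 2 to 4 kb, -0.055 from 4 to 8 kb and -0.16 at 8 kb or more (632 genes). In that last class, control tumors 1, 2 and 3 were at -0.031, 0.11 and -0.075, and IFN-γ tumors 1 and 2 at 0.061 and -0.0051. Cenpf and Mki67, the 2 genes of the list in this class, had a median of 0.12 in control tumor 2, -0.098 in control tumor 3 and -0.48 in IFN-γ tumor 3. Cenpe belongs to the class from 4 to 8 kb. In IFN-γ tumor 3 each of the 3 genes lay well below the median of all genes in its length class. The part of transcript length in these values was not tested. Without IFN-γ tumor 3 the log2 fold changes were -0.035 for Mki67 (standard error 0.10), -0.084 for Cenpf (0.089) and 0.030 for Cenpe (0.088).

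**Figure D3:**
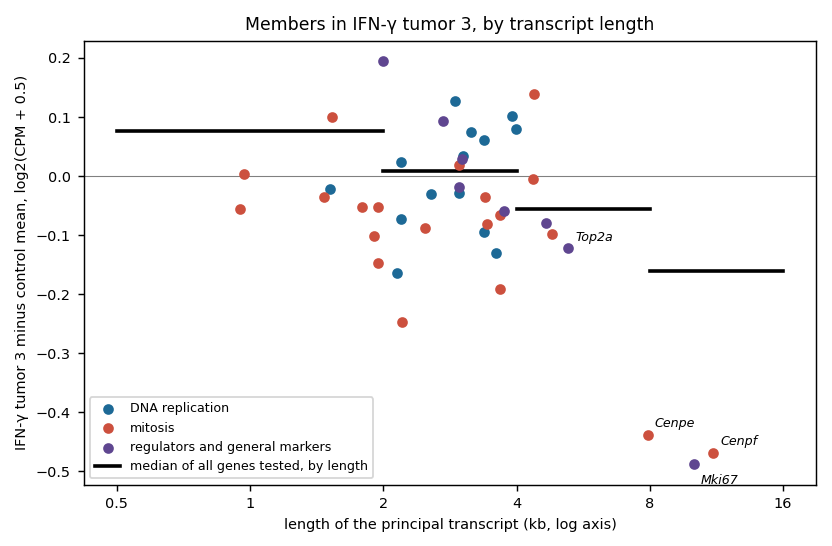
Log2 difference of IFN-γ tumor 3 from the control mean (vertical axis) against the length of the principal transcript in kb (horizontal log axis), 1 point per gene of the list, colored by role, with black lines for the median of all genes tested in each of 4 length classes. The black lines step down from 0.076 to -0.16, and Mki67, Cenpf and Cenpe lie lowest, between -0.49 and -0.44.

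Set side by side, the mean over the replication genes overlapped between the groups, and the mean over the mitosis genes was lower in each IFN-γ tumor than in any control tumor, although 0 of the 20 mitosis genes passed the test. The mean log2 level of the 14 replication genes, relative to the control mean, was 0.016, -0.00011 and -0.016 in control tumors 1, 2 and 3 and -0.028, 0.083 and -0.0031 in IFN-γ tumors 1, 2 and 3. The groups overlapped, with a difference of 0.017, which became -0.017 with library size as the only scaling. For the 20 mitosis genes the mean was 0.023, -0.031 and 0.0081 in the control tumors and -0.057, -0.065 and -0.095 in the IFN-γ tumors. All 3 IFN-γ tumors lay below the controls, with a difference of -0.072. Including Mki67, Top2a, Ccna2 and Foxm1, which also serve or mark the later part of the cycle, the difference was -0.076, again without overlap. The non-overlap was not particular to mitosis genes. The mean over the 8 regulators and general markers was also lower in each IFN-γ tumor than in any control tumor, with a difference of -0.048. With medians over genes in place of means, the groups overlapped for these 8 genes. The mean over all genes tested was -0.012, 0.00087 and 0.011 in the control tumors and 0.034, 0.037 and -0.033 in the IFN-γ tumors.

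The difference between the means, replication minus mitosis, was -0.0069, 0.031 and -0.024 in the control tumors and 0.028, 0.15 and 0.092 in the IFN-γ tumors. IFN-γ tumor 1 lay just below control tumor 2, so the groups overlapped, and the IFN-γ tumors were higher by 0.090 on the log2 scale. With medians over genes in place of means, the groups did not overlap and the difference was 0.069. No test was made of this contrast. Without IFN-γ tumor 3, the median log2 fold change was 0.044 for replication genes and -0.080 for mitosis genes, of which 16 of 20 were below 0. In that fit 0 of the 42 genes passed edgeR's adjusted threshold, while 3.18% of all genes tested did.

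Markers of other cells also differed between tumors. Of the marker lists examined, the mean log2 level of 6 adipocyte genes was higher in all 3 IFN-γ tumors than in the controls, by 1.52. With a pseudocount of 2 CPM the difference was 1.03. Their summed level was 102 to 144 CPM in the control tumors and 143 to 195 CPM in the IFN-γ tumors. Most of that sum was Fabp4, with a log2 fold change of 0.23. The other adipocyte genes were at most 6.44 CPM in the control tumors. Lep had 4, 2 and 1 counts there, although 0 of the 6 were at the floor in every tumor. By edgeR's adjusted threshold 0 of 6 passed with all tumors and 4 of 6 without IFN-γ tumor 3. The mean log2 level of 5 endothelial genes differed by -0.27 (IFN-γ minus control) with overlapping groups. Of these genes Kdr and Cdh5 were lower in every IFN-γ tumor, with log2 fold changes of -0.58 and -0.39. Their adjusted p was 0.30 and 0.35 from edgeR. Pecam1, Emcn and Tek overlapped between groups, with log2 fold changes of -0.20, -0.25 and 0.00053. The 5 endothelial genes summed to 210 to 267 CPM in the control tumors and 170 to 225 CPM in the IFN-γ tumors. The summed level of 6 macrophage genes was 2940 to 3592 CPM in the control tumors and 3209 to 5414 CPM in the IFN-γ tumors, and that of 6 T cell genes 41.1 to 59.9 and 32.8 to 95.4 CPM. Most of the macrophage sum was Lyz2, at 1593 to 2168 CPM in the control tumors and 1856 to 3463 CPM in the IFN-γ tumors. Mrc1 alone of the macrophage list had a log2 fold change below 0, at -0.22. It was at 391 to 433 CPM in the control tumors and 322 to 369 CPM in the IFN-γ tumors, without overlap. Without IFN-γ tumor 3, 4 of the 6 macrophage genes, Mrc1 not among them, and 0 of the 6 T cell genes passed edgeR's adjusted threshold. In the summed levels of the macrophage and T cell lists, IFN-γ tumors 1 and 2 were the highest and IFN-γ tumor 3 was within or below the control range. The summed level of 4 neutrophil genes, most of it Csf3r, was 27.6 to 36.1 CPM in the control tumors and 36.4 to 46.6 CPM in the IFN-γ tumors. Their mean log2 level overlapped between groups, as did those of 5 fibroblast and 5 skeletal muscle genes. The part of such cells in the levels of the mitosis genes was not tested.

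**Figure D4:**
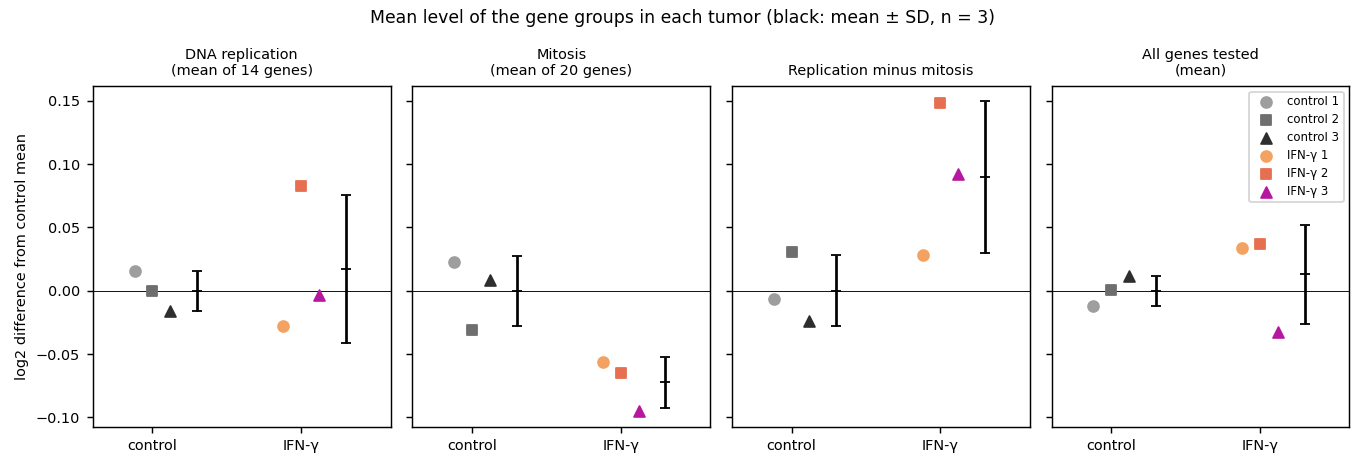
Mean log2 difference from the control mean (vertical axis) of the replication genes, the mitosis genes, the difference between these means and all genes tested, with 1 symbol per tumor and black bars for mean ± SD (n = 3 tumors per group). The mitosis means of the IFN-γ tumors lie between -0.095 and -0.057, below all 3 control tumors, and the replication means overlap.

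Beyond the 42, a further 111 genes of the cycle were read from the same fit, of which 109 were tested and 0 passed the adjusted threshold. Of the 109 log2 fold changes, 33 were above 0 and 76 below, with a median of -0.059. Without IFN-γ tumor 3, 4 of 111 passed, with Wee1 higher and Cdkn1a, E2f8 and Mybl2 lower in the IFN-γ group, while 3.18% of all genes tested passed in that fit. The genes of the origin complex and the polymerases were divided, with 14 of 33 above 0 and a median of -0.023. Those of the kinetochore and spindle lay below 0 in 30 of 35, with a median of -0.088, close to the mitosis genes described above. In 14 of these 35 every IFN-γ tumor lay below every control tumor, against 7.5% of all genes tested, and in 1, Bub3, every one lay above, against 7.62%. Of the 17 genes of the RB, E2F and DREAM group, which time the expression of both classes, 13 were below 0, with a median of -0.096.

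Mybl2 encodes B-Myb, which activates mitosis genes. It was at 43.9, 53.6 and 53.8 CPM in the control tumors and at 32.2, 30.6 and 26.2 CPM in the IFN-γ tumors, all below the controls. This gave a log2 fold change of -0.77 (standard error 0.12), with an adjusted p of 0.075 by edgeR, or 0.020 without IFN-γ tumor 3. E2f8, a repressor of the E2F family, was at 126, 146 and 138 CPM in the control tumors and at 103, 101 and 85.5 CPM in the IFN-γ tumors. E2f2, an activator of that family named after its values were seen, was at 30.4, 32.4 and 26.8 CPM in the control tumors and at 22.9, 18.4 and 18.1 CPM in the IFN-γ tumors. Neither gene overlapped between groups, with log2 fold changes of -0.50 for E2f8 (adjusted p = 0.15, or 0.036 without IFN-γ tumor 3) and -0.59 for E2f2 (adjusted p = 0.22, or 0.078) by edgeR.

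Cdkn1a encodes p21, the inhibitor that stops the cycle downstream of p53. It was at 206, 162 and 183 CPM in the control tumors and at 106, 108 and 136 CPM in the IFN-γ tumors. All 3 IFN-γ tumors were lower, with a log2 fold change of -0.65 (standard error 0.12, adjusted p = 0.15 by edgeR, or 0.012 without IFN-γ tumor 3). Wee1 encodes the kinase that holds Cdk1 inactive. It was at 34.1, 35.8 and 34.7 CPM in the control tumors and at 46.6, 48.6 and 53.3 CPM in the IFN-γ tumors. All 3 IFN-γ tumors were higher, with a log2 fold change of 0.50 (standard error 0.083, adjusted p = 0.096 by edgeR, or 0.030 without IFN-γ tumor 3). These 5 genes, Mybl2, E2f8, E2f2, Cdkn1a and Wee1, passed the adjusted threshold in DESeq2 with all 6 tumors, as did 1.39% of all genes given an adjusted p.

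**Figure D5:**
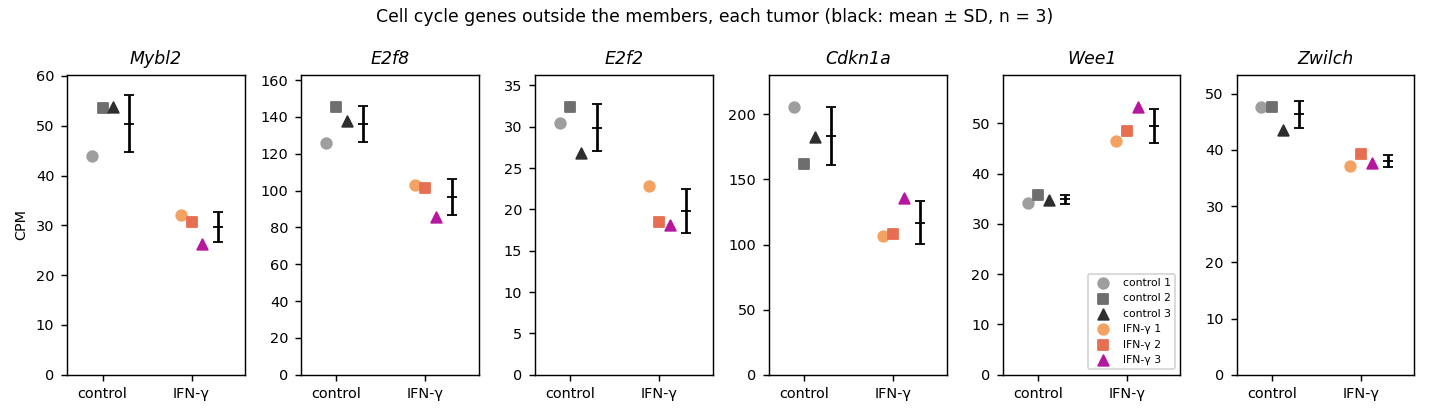
CPM (vertical axis, from 0) of Mybl2, E2f8, E2f2, Cdkn1a, Wee1 and Zwilch in each of the 6 tumors, with black bars for mean ± SD (n = 3 tumors per group). In each panel the groups do not overlap, with the IFN-γ tumors lower except for Wee1, where they lie between 46.6 and 53.3 CPM.

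The remaining genes that the selection rule named had smaller log2 fold changes than these. Zwilch, which brings checkpoint proteins to the kinetochore, was at 47.7, 47.7 and 43.6 CPM in the control tumors and at 37.2, 39.2 and 37.6 CPM in the IFN-γ tumors. Its log2 fold change was -0.29 (adjusted p = 0.30, edgeR). Hmmr, a spindle protein, was at 92.3 to 102 CPM in the control tumors and 82.6 to 91.9 CPM in the IFN-γ tumors, with a log2 fold change of -0.19. The polymerase subunit Pold2 and the origin subunit Orc3 had log2 fold changes of -0.15 and -0.14. Ccnd2, cyclin D2, and Cdkn1b, the inhibitor p27, had 0.14 and 0.19. Myc, a growth regulator, was at 102, 94.3 and 96.9 CPM in the control tumors and at 87.2, 93.0 and 124 CPM in the IFN-γ tumors, with overlap and the highest value in IFN-γ tumor 3. Cdkn2a, the p16 and p19 locus, was too low to be tested, with 0.45 to 1.0 CPM in the control tumors and 0.49 to 0.79 CPM in the IFN-γ tumors. Cdkn1c, the inhibitor p57, named after its values were seen, was at 0.28 to 0.63 CPM in the control tumors and at 0.35 to 1.10 CPM in the IFN-γ tumors, with a log2 fold change of 0.52 (standard error 0.53).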

How the data were processed

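RNA was sequenced from 6 tumors, 3 per group by the labels. A figure legend of the paper gives fewer IFN-γ tumors than are labelled, and for panel B also fewer control tumors. It does not name those left out, so all labelled tumors were used. Values without IFN-γ tumor 3, which stood apart from its group, are given beside the main ones. The table deposited by the authors holds raw read counts for each gene. HISAT2 and mm10 stand in the submitters' processing notes. The counting program, its annotation and its use of strand are not given in the sources used here. Exons of 14 of the 42 genes overlap another gene, which makes their counts less certain. The identifiers matched an annotation of GRCm38 in 99.5% of cases, and positions and transcript lengths come from it.

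CPM values used TMM factors. Genes were tested with edgeR 4.0.16 (R 4.3.3) by the quasi-likelihood test with the default filter on low counts, Benjamini-Hochberg adjustment over all genes tested and a threshold of 0.05. Levels relative to the control mean used log2(CPM + 0.5). DESeq2 1.42.0, limma 3.58.1 (voom), other scalings and filters, a replicate block, a pseudocount of 2 CPM, medians over genes and fits without each tumor were alternatives. The floor of 3 counts covers counting error only. No 2 libraries agreed within sampling noise. Scripts were tested on simulated data.

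Genes named with values were the 4 replication genes, 6 mitosis genes and 2 regulators with the smallest unadjusted p, with Mki67, Top2a, Ccna2, Ccnd1, Ccne1, E2f1, Foxm1, Pcna, Mcm2, Cdk1 and Ccnb1. Of the wider list they were the 2 genes with the smallest p in each role, with Cdkn1a, Cdkn2a, Wee1 and Myc, given by tumor, as a range or as a fold change. Rrm1, Mcm3, Cenpe and Kif23, and the cell type markers named singly, were given after their values were seen. The genes and lists were chosen with earlier results of these data known.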

Additional observations from a re-analysis of the deposited data

How the results depend on the processing

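The count of 0 called among the 42 genes held under every alternative run. Over the 54 genes followed singly, 661 of 702 alternative values kept their sign and their side of the threshold, 14 newly passed it and 27 changed sign. Of the 111 wider cell cycle genes, 5 passed with DESeq2 and 5 without a filter on low counts, and 0 to 4 with a tumor left out, the 4 being without IFN-γ tumor 3. Over all genes, 12 were higher and 5 lower. These counts became 122 and 73 with DESeq2, 150 and 70 without a filter, and 5 and 2 with a replicate block. With library size as the only scaling the higher genes numbered 7, and limma-voom called 3 lower. With a tumor left out they ranged from 4 to 381 and from 2 to 112, the highest without IFN-γ tumor 3. The cause of these shifts was not tested.

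With library size as the only scaling, the median log2 fold change moved from -0.049 to -0.083 over the 42 genes and from -0.076 to -0.11 over the mitosis genes, whose mean by tumor moved from -0.072 to -0.11. Under that scaling Mcm5 was at -0.0091, Mcm7 at -0.026 and Ccnb2 at -0.0030, and Mcm7 was at -0.0018 with upper-quartile factors. With a tumor left out, log2 fold changes that changed sign ranged from -0.035 to 0.074 for Mcm5, -0.027 to 0.027 for Mcm7, -0.059 to 0.042 for Cdc6, -0.0070 to 0.10 for Cdt1, -0.016 to 0.11 for Tyms, -0.098 to 0.046 for Cdk1, -0.012 to 0.071 for Ccnb2, -0.045 to 0.010 for Cdc25c, -0.23 to 0.030 for Cenpe, -0.070 to 0.040 for Kif11, -0.023 to 0.0063 for Kif23, -0.044 to 0.032 for Top2a and -0.13 to 0.15 for Myc.

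Replicate numbers did not pair the tumors. Deviations of same-numbered tumors from their group means correlated over genes at -0.24, -0.0047 and -0.22, and the replicate block left 0 of the 42 genes and 0 of the wider list called. Cdkn2a and Cdkn2b were too low at this depth to be tested.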
